A study of Mus musculus with 40 samples.

Results

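Interferon-stimulated genes are genes whose transcription is switched on when a cell senses interferon, and 47 of them, named as a list of symbols, are described here out of the 24062 genes of the count table. All 47 were in the table, and all 47 passed the filter on low counts over the 9 libraries, which 14883 genes passed. The data are RNA-seq counts of primary mouse embryonic fibroblasts (MEFs) taken at 13.5 days post coitum and grown to passage 3, from Sall2 wild-type (WT, 1 embryo), heterozygous (Het, 1 embryo) and knockout (KO, 3 embryos) mice of a mixed C57BL/6J-129P2OlaHsd strain. Each culture was sequenced untreated and after 16 h in 1 µM doxorubicin, a drug that intercalates into DNA and poisons topoisomerase II, and the RNA had been depleted of rRNA. The 40 deposited samples are 4 sequencing runs of each of 10 libraries, and the count table has 10 columns. The columns of KO2 and KO3 with doxorubicin were identical for 24062 of 24062 genes and count as 1 library, named KO2 here, so that 9 libraries remain and KO3 has a control only. WT and Het had 1 library per treatment and no replicate. Sall2 encodes a zinc finger transcription factor, and its allele was made by gene targeting in embryonic stem cells of a 129P2 strain, so that all cultures, the WT included, come from a line with mixed parental genomes.

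Type I interferons bind a receptor of the chains IFNAR1 and IFNAR2, whose kinases JAK1 and TYK2 pass the signal to a complex with STAT2 and IRF9 that enters the nucleus and binds the interferon-stimulated response element in the promoters of its target genes. The products of those genes sense foreign RNA and DNA, tag or degrade viral components and restrain the signal itself, and fibroblasts both make interferon beta and respond to it.

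Total counts ranged from 15560728 (Het, doxorubicin) to 24122414 (WT control). A count of 0 allows up to 3 counts, which is 0.124 to 0.167 CPM (counts scaled to a common library size) in these libraries, and such floors cover counting error only. Levels are given as CPM of library sizes scaled with TMM, a method that sets the bulk of genes to equal levels between libraries, and differences as log2 ratios of CPM with a prior count of 2. The targeted gene Sall2 was at 37.0, 24.3, 19.5, 23.8 and 19.1 CPM in the WT, Het, KO1, KO2 and KO3 controls and 9.34, 8.33, 4.23 and 3.71 CPM in the WT, Het, KO1 and KO2 doxorubicin libraries. It was highest in the WT control, and RNA from Sall2 was counted in every KO library. Fibroblast markers were present in all libraries, but not at like levels: the 12 genes of the marker list summed to 94663 CPM in the WT control, 20761 in the Het control and 77624, 86677 and 16802 in the KO1, KO2 and KO3 controls, and to 59737, 23534, 55512 and 47638 CPM with doxorubicin in WT, Het, KO1 and KO2. Fn1, which encodes fibronectin, was the most abundant of them in each library. The Het control, the KO3 control and the Het doxorubicin library were the low ones.

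The Het and KO3 controls stood apart from the other controls over the whole table. Over 14883 genes, the Pearson correlation of log2 CPM was 0.981 between these 2 libraries and 0.988 to 0.993 among the WT, KO1 and KO2 controls, against 0.923 to 0.934 between the pairs that cross; genes are not independent replicates. Their TMM factors were 1.24 and 1.22, against 0.839 to 0.848 in the other 3 controls, and their 10 most abundant genes held 6.57% and 6.08% of counts, against 12.7% to 14.9%. Scaled by total counts only, the median of all genes moved from 0.02 to 0.55 for Het over WT, from 0.00 to 0.49 for KO3 over WT and from 0.04 to 0.46 for Het over WT with doxorubicin. Ribosomal precursor RNA (Rn45s) took 0.0481%, 0.723%, 0.0387%, 3.16% and 0.772% of counts in the WT, Het, KO1, KO2 and KO3 controls and 0.0848%, 2.56%, 0.153% and 0.110% with doxorubicin in WT, Het, KO1 and KO2. Xist and the Y-linked genes gave the same pattern in the 2 libraries of each embryo, with Y-linked counts of 3806 and 1551 in KO1 and 1 and 4 in WT, 3 and 0 in Het and 1 and 0 in KO2, whereas the KO3 control had 6397. The part that these properties have in the results on the members was not tested, and the fits of doxorubicin over the embryos are given with and without Het and those of KO against WT in control with and without KO3.

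In the untreated cultures the 47 genes split the libraries into a low and a high class. They held 0.0513% of all counts in the WT control, 0.0576% in KO1 and 0.0517% in KO2, but 0.668% in Het and 0.721% in KO3. Their summed level was 605, 686 and 615 CPM in WT, KO1 and KO2 and 5391 and 5921 CPM in Het and KO3. Without Ifitm3, the most abundant member of the low class, the sums of the other 46 were 380.2, 421 and 389 CPM against 4933 and 5433 CPM. Of the 47 members, 5, 5 and 6 had 3 counts or fewer in the WT, KO1 and KO2 controls, and 0 did in the other 6 libraries. In bulk RNA, more cells with such transcripts and more of them per cell cannot be told apart.

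Every member was higher in the Het control and in the KO3 control than in the WT control, by at least 2-fold. The median log2 ratio to WT was 5.37 for Het, where 47 of 47 members were 2-fold higher or more against 20.4% of the 14883 genes, and 5.63 for KO3, where 47 of 47 were, against 19% of genes. With members at or under 3 counts in WT set to 3 counts, the medians were 5.44 and 5.65. Among members above 3 counts in WT, the log2 ratio ran from 1.03 (Ifitm3) to 8.20 (Isg15) for Het and from 1.12 (Ifitm3) to 8.35 (Isg15) for KO3. Both ratios use the same WT library, and no test was made of single libraries. The KO1 control was near WT, with a median of 0.35 and 7 members, some of them at the floor in WT, at 2-fold higher or more against 3.51% of genes. By direction alone 38 of 47 were higher there, and with a prior count of 0.5 the 7 became 12. The KO2 control was near WT as well, with a median of 0.02, 4 members 2-fold higher (1.75% of genes) and 2 members 2-fold lower (1.94% of genes). Between the KO3 and Het controls, 47 of 47 members lay within 2-fold, with a median log2 ratio of 0.15. So did 93.6% of all genes, and this count is near the background. The split ran through the KO embryos and did not follow the genotype labels. The high levels of Het and KO3 were known when the members were chosen, so these counts describe the split and are no independent support for it.

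**Figure D1:**
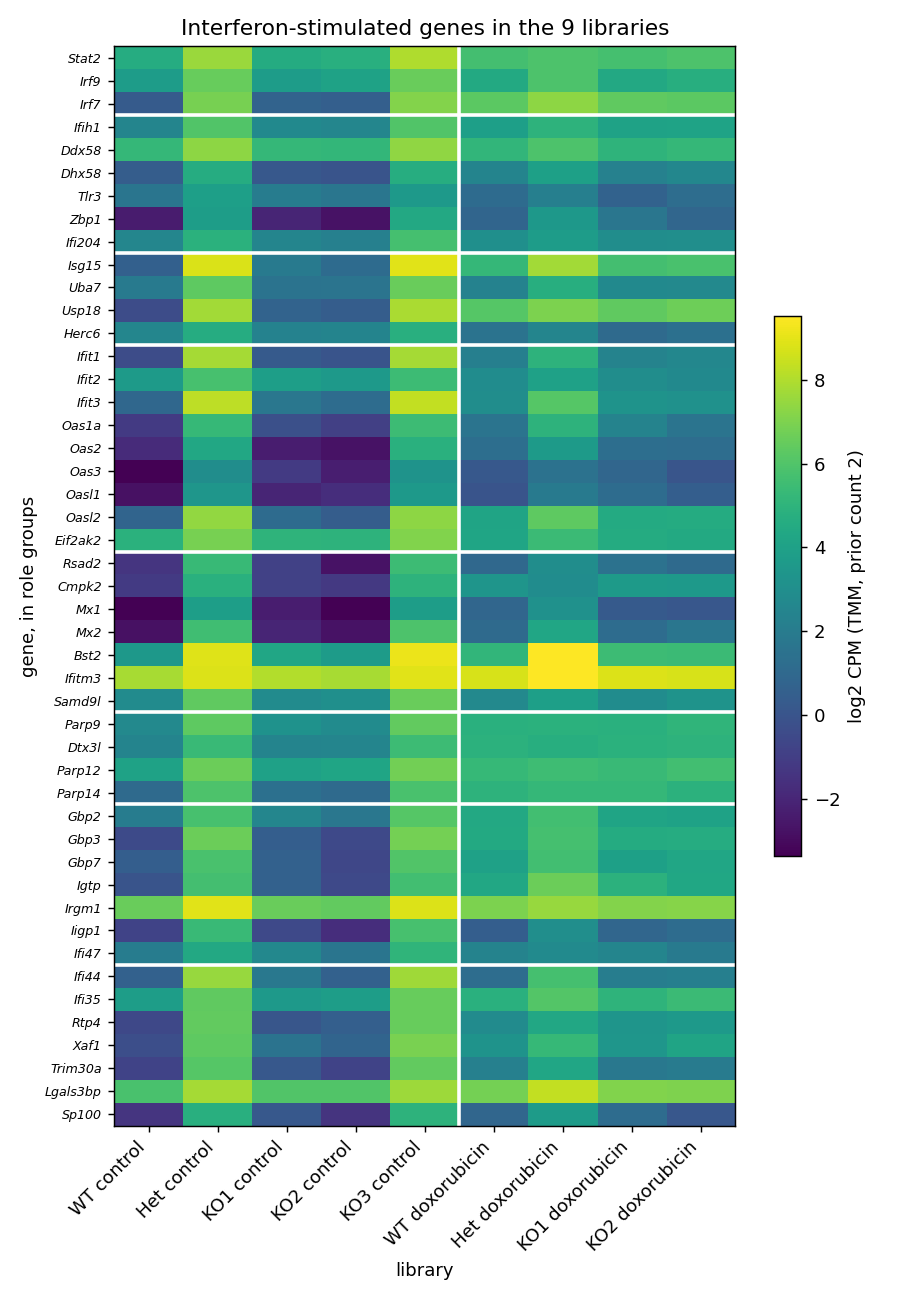
Heat map of the log2 CPM of the 47 members (lines of the map, in role groups) in the 9 libraries (columns); the colour scale is the level. The Het and KO3 controls are high over all role groups, with summed levels of 5391 and 5921 CPM against 605 to 686 CPM in the other 3 controls.

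With doxorubicin the summed level of the members lay between those of the low and the high class of the untreated cultures, though single members did not always. It was 1389, 3710, 1545 and 1554 CPM in the WT, Het, KO1 and KO2 doxorubicin libraries, above the controls of WT, KO1 and KO2 and below that of Het. The median log2 ratio of doxorubicin to control was 2.27 in the WT embryo, 1.60 in KO1 and 2.29 in KO2, and −1.10 in Het. With members at or under 3 counts set to 3 counts, these medians were 2.38, 1.64, 2.45 and −1.11. In WT, 33 members were 2-fold higher or more, against 25.1% of all genes, and 1 was 2-fold lower, against 19.2%. KO1 had 35 higher and 2 lower, against 24.7% and 17.7% of genes, and KO2 had 36 higher and 1 lower, against 25.3% and 19.2%. In Het, 0 members were 2-fold higher, against 22.3% of genes, and 29 were 2-fold lower, against 17.7%. By direction alone, 35 members were higher with doxorubicin in WT, KO1 and KO2 and lower in Het, 5 were higher in all 4 embryos (Irf7, Bst2, Ifitm3, Igtp and Lgals3bp), and 4 were lower in all 4 (Tlr3, Herc6, Ifit2 and Eif2ak2). Of all 14883 genes 7.13%, 38.7% and 36.8% had these patterns. With total counts only, 9.65%, 41.9% and 32.3% of genes had them, and the counts of members were again 35, 5 and 4. The other 3, Ddx58, Samd9l and Ifi47, followed none of these patterns.

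**Figure D2:**
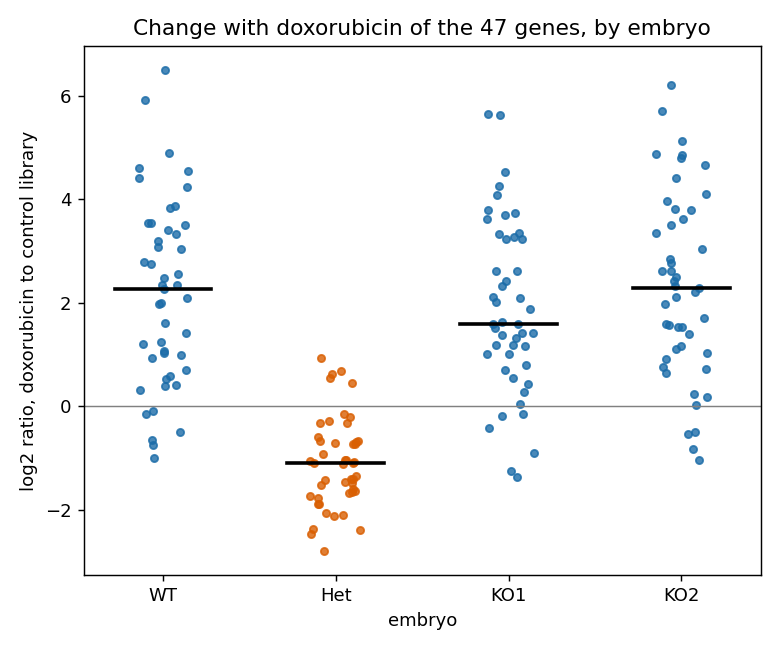
Log2 ratio of doxorubicin to control within each embryo (vertical axis, log2) for each of the 47 members (dots), with the median of the members as a bar, for WT, Het, KO1 and KO2. The medians are 2.27 in WT, 1.60 in KO1, 2.29 in KO2 and −1.10 in Het.

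The fit of doxorubicin against control with embryo as a block asks for a change shared by the 4 embryos (edgeR, 8 libraries, adjusted p under 0.01 over 14735 genes). It called 9 members, against 59.9% of all genes: 5 rose, against 30.9% of genes, and 4 fell, against 29%. At an unadjusted p under 0.05 there were 23, against 10963 of the 14735 genes. Those that rose were Irf7, by a log2 fold change of 4.43 ± 1.04 (SE, adjusted p = 0.00558), Igtp, Bst2, Lgals3bp and Ifitm3, and those that fell were Herc6, Ifit2, Tlr3 and Eif2ak2. The median of the 47 was 1.10. Without the Het embryo, the fit on WT, KO1 and KO2 called 44 members, against 75.6% of genes: 40 rose, against 39.3%, and 4 fell, against 36.4%, with a median of 2.09. Ddx58, Ifi47 and Samd9l were the 3 not called. The 9 members called over 4 embryos had log2 fold changes without Het of 5.84 (Irf7), 4.56 (Igtp), 1.49 (Bst2), 1.02 (Lgals3bp), 0.88 (Ifitm3), −1.12 (Herc6), −0.84 (Ifit2), −0.80 (Tlr3) and −0.54 (Eif2ak2). Without the KO1 or the KO2 embryo the count was 5, against 6631 of 14915 and 6619 of 14863 genes. Without WT it was 6, against 6713 of 14858 genes. Irf7, Tlr3 and Eif2ak2 missed the threshold each time 1 of these embryos was left out, and Igtp did without KO1 and without KO2. Scaled by total counts only, Tlr3 and Eif2ak2 missed it, and Tlr3 also missed it with the size factors of DESeq2 in edgeR. Taking the repeated column as the doxorubicin library of KO3, as its title says, gave 3 called members and a median of 0.062. All 3 fell and 0 rose, and 5986 of 14825 genes were called. The KO3 control was in the high class. The p-values of these fits do not measure the spread between these embryos alone. The spread of each gene is drawn toward a trend over all genes, which weighs most where few embryos are left, as without Het. WT and Het had 1 embryo each.

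The difference of responses contains the untreated levels, and the high untreated Het level was known when the members were chosen. The direction of this difference is thus no independent support, and the part of the untreated level in it was not tested. In the test of the difference of the doxorubicin response, Het minus WT, 40 members passed and all were lower, against 2.33% of genes, with a median of −3.59. For Het minus KO, 41 passed and all were lower, against 4.45% of genes, with a median of −3.15. For KO minus WT, edgeR called 2 genes (0.0136%) and 0 members, with a median of −0.05, and 3 members had an unadjusted p under 0.05 (0 by DESeq2, which also called 0 members). Of Het minus WT, Ifit2, Eif2ak2, Herc6, Ifitm3, Bst2, Lgals3bp and Tlr3 did not pass. Only 1 residual degree of freedom was left in this fit, the difference between KO1 and KO2. The spread behind its SE and p-values is therefore largely that of a trend over all genes. No spread within Het or WT enters it, so the Het genotype and the state of this 1 embryo cannot be told apart. Without the embryo block, 13 and 26 members passed, against 21 and 96 of 14735 genes. With DESeq2 26 and 33 did, against 286 and 579 of these genes.

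The study's own contrast, KO against WT, gave no called member in edgeR or DESeq2 when all libraries were kept. In control, edgeR called 0 of 14470 genes (0%), with 10 genes and 0 members at an unadjusted p under 0.05; DESeq2 called 0 as well, with 12 members at an unadjusted p under 0.05. The median log2 fold change of the members was 4.16, which rests on KO3: without KO3 it was 0.17, with 0 of 39 members tested called, and without KO1 or KO2 it was 4.70 and 4.71, with 24 and 22 members called and all higher, against 0.328% and 0.284% of genes. Without KO3 the members outside these 39 did not pass the filter on low counts, so the medians with and without KO3 cover different sets. The high level of the KO3 control was known when the members were chosen. The calls without KO1 or KO2 thus restate it and are no independent support. After RUVg with 1 factor and an exact test that takes no account of the factor removed, 9 members passed, against 1.11% of genes. With doxorubicin, edgeR called 30 of 15256 genes (0.197%) and 0 members, with 5 members at an unadjusted p under 0.05, and DESeq2 called 0 members, with 1 at that level. Here the median was 0.20. By single libraries with doxorubicin, 34 members were 2-fold higher in Het than in WT, against 14.6% of genes, with a median of 1.44, while KO1 had 1 member 2-fold higher (1.26% of genes, median 0.17) and KO2 had 0 (0.544% of genes, median 0.20).

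The transcription factors of the response were low but present in the low class. Stat2, a subunit of the complex that the interferon receptor activates, was at 24.2, 191, 23.5, 26.9 and 254 CPM in the WT, Het, KO1, KO2 and KO3 controls and 50.8, 59.8, 53.2 and 60.1 CPM in the WT, Het, KO1 and KO2 doxorubicin libraries. Irf9, the DNA-binding subunit of that complex, was at 13.5, 91.1, 13.3, 16.6 and 96.9 CPM in the WT, Het, KO1, KO2 and KO3 controls and 22.2, 60.3, 21.5 and 26.0 CPM in the WT, Het, KO1 and KO2 doxorubicin libraries. Both were high in the Het and KO3 controls only, and with doxorubicin the 4 libraries lay between the classes. Irf7, which amplifies interferon transcription, was at 1.17, 116, 1.56, 1.38 and 138 CPM in the WT, Het, KO1, KO2 and KO3 controls and 76.8, 158, 83.3 and 76.8 CPM in the WT, Het, KO1 and KO2 doxorubicin libraries. It was near 1 CPM in the low controls, within 2-fold of the untreated high class in the WT, KO1 and KO2 doxorubicin libraries, and highest of all 9 libraries in Het with doxorubicin. Across the 3 genes the median log2 ratio to WT was 2.98 in the Het control and 3.38 in the KO3 control, and with doxorubicin it was 1.07 within WT, 1.18 within KO1, 1.16 within KO2 and −0.59 within Het. Irf7 rose in the fit of 4 embryos, and the response of Het was lower, with a difference of −5.59 ± 0.30 (SE, adjusted p = 2.01e-09) from WT and −5.32 ± 0.24 (SE, adjusted p = 1.14e-10) from KO. Stat2 and Irf9 were not called over the 4 embryos (adjusted p = 0.385 and 0.204); in WT, KO1 and KO2 alone they rose by 1.13 ± 0.09 (SE, adjusted p = 7.20e-10) and 0.68 ± 0.11 (SE, adjusted p = 8.79e-06).

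The sensors of RNA and DNA showed the split in different sizes. Ifih1, which encodes the receptor MDA5 for long double-stranded RNA, was at 5.62, 64.9, 6.53, 5.84 and 64.7 CPM in the WT, Het, KO1, KO2 and KO3 controls and 15.1, 31.5, 16.4 and 17.0 CPM in the WT, Het, KO1 and KO2 doxorubicin libraries. Ddx58, the gene of RIG-I, was at 36.6, 161, 37.2, 36.1 and 167 CPM in the WT, Het, KO1, KO2 and KO3 controls and 34.2, 60.5, 32.7 and 36.5 CPM in the WT, Het, KO1 and KO2 doxorubicin libraries. Dhx58, whose product LGP2 tunes both receptors, was at 1.27, 24.7, 1.06, 0.881 and 25.2 CPM in the WT, Het, KO1, KO2 and KO3 controls and 5.31, 15.4, 4.85 and 5.91 CPM in the WT, Het, KO1 and KO2 doxorubicin libraries. In these 3 genes the Het and KO3 controls exceeded all other libraries, and with doxorubicin Het was the highest of the 4. Tlr3, the endosomal receptor for double-stranded RNA, was at 2.98, 14.7, 4.02, 3.19 and 12.1 CPM in the WT, Het, KO1, KO2 and KO3 controls and 2.09, 4.57, 1.50 and 2.25 CPM in the WT, Het, KO1 and KO2 doxorubicin libraries. Zbp1, a sensor of nucleic acids in the left-handed Z form, had 2, 341, 3, 1 and 473 counts in the WT, Het, KO1, KO2 and KO3 controls and 34, 222, 56 and 39 counts in the WT, Het, KO1 and KO2 doxorubicin libraries. The gene of the DNA-binding protein Ifi204 was at 5.72, 28.6, 5.58, 4.68 and 53.3 CPM in the WT, Het, KO1, KO2 and KO3 controls and 8.25, 13.3, 7.58 and 8.02 CPM in the WT, Het, KO1 and KO2 doxorubicin libraries. Tlr3 was lower with doxorubicin in each embryo and fell by 1.05 ± 0.27 (SE, adjusted p = 0.00839) in the fit. Zbp1 had 1 to 3 counts in the low controls and 341 and 473 in the high ones. For the 6 sensors the median log2 ratio to WT was 2.91 in Het and 3.35 in KO3. Without Het, 4 of the 6 rose and Tlr3 fell, while Ddx58 was not called, at −0.09 ± 0.10 (SE, adjusted p = 0.370). Over all genes 39.3% rose and 36.4% fell in that fit. The Het response was lower than that of WT for 5 of the 6, against 2.33% of genes, Tlr3 being the one that did not pass.

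ISG15 is a ubiquitin-like protein that is attached to newly made proteins, and its enzymes were members as well. Isg15 itself was at 1.42, 444, 3.72, 2.15 and 494 CPM in the WT, Het, KO1, KO2 and KO3 controls and 36.7, 211, 50.9 and 56.9 CPM in the WT, Het, KO1 and KO2 doxorubicin libraries. Usp18, whose product removes ISG15 and blocks the interferon receptor, was at 0.684, 210.0, 1.56, 1.27 and 232 CPM in the WT, Het, KO1, KO2 and KO3 controls and 70.5, 126, 81.8 and 101 CPM in the WT, Het, KO1 and KO2 doxorubicin libraries. Both were at a few CPM or less in the low class, and doxorubicin brought Usp18 closer to the high class than Isg15. Uba7, the activating enzyme of ISG15, was at 3.76, 80.8, 2.86, 2.92 and 94.6 CPM in the WT, Het, KO1, KO2 and KO3 controls and 5.07, 25.8, 6.57 and 6.42 CPM in the WT, Het, KO1 and KO2 doxorubicin libraries. Herc6, the main ISG15 ligase of the mouse, was at 5.67, 24.7, 5.03, 5.34 and 27.4 CPM in the WT, Het, KO1, KO2 and KO3 controls and 2.78, 5.59, 2.06 and 2.57 CPM in the WT, Het, KO1 and KO2 doxorubicin libraries. Uba7 was high in the Het and KO3 controls and was higher with doxorubicin in WT, KO1 and KO2 by smaller factors, and Herc6 was lower with doxorubicin in each of the 4 embryos. Herc6 fell by 1.40 ± 0.24 (SE, adjusted p = 0.00110) over the 4 embryos. Usp18 had the largest fitted change of the 47, at 4.55 ± 1.37 (SE, adjusted p = 0.0177), yet was not called over the 4 embryos; without Het it rose by 6.16 ± 0.15 (SE, adjusted p = 4.42e-17). Its response was lower in Het, with a difference of −7.42 ± 0.33 (SE, adjusted p = 1.92e-10) from WT and −6.74 ± 0.26 (SE, adjusted p = 9.81e-12) from KO. Isg15, at 3.07 ± 1.04 (SE, adjusted p = 0.0292) over the 4 embryos, rose by 4.31 ± 0.16 (SE, adjusted p = 6.68e-15) without Het, and Uba7 by 0.91 ± 0.19 (SE, adjusted p = 0.000163). Isg15, Uba7 and Usp18 passed in both tests of the Het response and Herc6 in neither.

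The effectors that bind viral RNA differed widely between the classes. Ifit1, whose product binds RNA caps that lack a methyl mark of the host, was at 0.684, 217, 1.11, 0.881 and 219 CPM in the WT, Het, KO1, KO2 and KO3 controls and 4.52, 31.2, 5.13 and 5.87 CPM in the WT, Het, KO1 and KO2 doxorubicin libraries. Ifit3, its binding partner, was at 1.86, 298, 3.22, 2.20 and 317 CPM in the WT, Het, KO1, KO2 and KO3 controls and 7.75, 68.9, 9.36 and 8.94 CPM in the WT, Het, KO1 and KO2 doxorubicin libraries. Ifit2, another gene of the same cluster, was at 12.7, 54.1, 14.3, 11.7 and 44.1 CPM in the WT, Het, KO1, KO2 and KO3 controls and 7.45, 16.2, 7.63 and 6.55 CPM in the WT, Het, KO1 and KO2 doxorubicin libraries. Ifit1 and Ifit3 were at 0.684 to 3.22 CPM in the low controls, and even with doxorubicin the WT, KO1 and KO2 libraries stayed far under the untreated Het and KO3 libraries. Ifit2 was lower with doxorubicin in each embryo and fell by 1.07 ± 0.19 (SE, adjusted p = 0.00151). Oas1a, which makes the oligoadenylate that activates RNase L, was at 0.342, 38.4, 0.754, 0.441 and 43.6 CPM in the WT, Het, KO1, KO2 and KO3 controls and 2.93, 30.6, 5.13 and 2.93 CPM in the WT, Het, KO1 and KO2 doxorubicin libraries. Its relative Oas2 had 4, 497, 2, 1 and 620 counts in the WT, Het, KO1, KO2 and KO3 controls and 48, 244, 42 and 50 counts in the WT, Het, KO1 and KO2 doxorubicin libraries. Oas3, which has the longest protein of the family, had 0, 182, 7, 2 and 210 counts in the WT, Het, KO1, KO2 and KO3 controls and 21, 54, 31 and 20 counts in the WT, Het, KO1 and KO2 doxorubicin libraries. None of the 3 exceeded 15 counts in a control of the low class. Against the floor of 3 counts, Oas3 was at least 51.3-fold higher in the Het control and at least 64.5-fold higher in the KO3 control than in WT. Oasl1, a relative without the enzyme activity, had 1, 254, 3, 4 and 257 counts in the WT, Het, KO1, KO2 and KO3 controls and 18, 71, 40 and 28 counts in the WT, Het, KO1 and KO2 doxorubicin libraries. Oasl2 was at 1.66, 172, 2.11, 1.27 and 161 CPM in the WT, Het, KO1, KO2 and KO3 controls and 17.6, 79.0, 22.3 and 23.3 CPM in the WT, Het, KO1 and KO2 doxorubicin libraries. Eif2ak2, the gene of the kinase PKR that halts translation on double-stranded RNA, was at 29.4, 118, 31.9, 31.6 and 134 CPM in the WT, Het, KO1, KO2 and KO3 controls and 18.7, 42.0, 23.7 and 21.8 CPM in the WT, Het, KO1 and KO2 doxorubicin libraries. Oasl1 and Oasl2 followed Oas1a, whereas Eif2ak2 was lower with doxorubicin in each embryo and fell by 0.78 ± 0.19 (SE, adjusted p = 0.00608). For the 9 genes the median log2 ratio to WT was 6.29 in Het and 6.58 in KO3, and with doxorubicin it was 2.76 in WT, 2.12 in KO1, 2.29 in KO2 and −1.49 in Het. Without Het all 9 were called, 7 higher and 2 lower, against 75.6% of all genes, 39.3% higher and 36.4% lower. The Het response was lower than that of WT in 7 of the 9 and lower than that of KO in 8, against 2.33% and 4.45% of genes.

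The effectors at membranes, on nucleotides and on viral particles ran from the most abundant member, in all libraries but the Het control, to some of the rarest. Ifitm3, which keeps viruses from fusing in endosomes, was at 224, 458, 265, 226 and 488 CPM in the WT, Het, KO1, KO2 and KO3 controls and 429.9, 732, 463 and 423 CPM in the WT, Het, KO1 and KO2 doxorubicin libraries. Bst2, the gene of tetherin, which holds budding particles at the cell surface, was at 11.4, 476, 19.3, 12.8 and 573 CPM in the WT, Het, KO1, KO2 and KO3 controls and 34.9, 729, 44.0 and 42.3 CPM in the WT, Het, KO1 and KO2 doxorubicin libraries. These were 2 of the 5 members that were higher with doxorubicin in each of the 4 embryos, and the Het doxorubicin library was the highest of all 9 for both. Bst2 rose by 1.26 ± 0.19 (SE, adjusted p = 0.000527) and Ifitm3 by 0.83 ± 0.09 (SE, adjusted p = 0.000115). Rsad2, which encodes viperin, an enzyme that makes a chain-terminating nucleotide, had 6, 966, 9, 1 and 998 counts in the WT, Het, KO1, KO2 and KO3 controls and 38, 148, 48 and 44 counts in the WT, Het, KO1 and KO2 doxorubicin libraries. Cmpk2, a nucleotide kinase gene beside Rsad2, was at 0.342, 28.1, 0.452, 0.330 and 31.6 CPM in the WT, Het, KO1, KO2 and KO3 controls and 10.2, 7.47, 12.6 and 12.3 CPM in the WT, Het, KO1 and KO2 doxorubicin libraries. Both were lower with doxorubicin in the Het embryo and higher in the other 3 embryos. Mx1, a GTPase gene of antiviral defence, had 0, 348, 2, 0 and 308 counts in the WT, Het, KO1, KO2 and KO3 controls and 35, 173, 20 and 22 counts in the WT, Het, KO1 and KO2 doxorubicin libraries. Its neighbour Mx2 had 1, 1157, 3, 1 and 1322 counts in the WT, Het, KO1, KO2 and KO3 controls and 41, 371, 40 and 69 counts in the WT, Het, KO1 and KO2 doxorubicin libraries. Samd9l, which restrains protein synthesis and growth, was at 7.09, 83.7, 7.19, 8.26 and 94.2 CPM in the WT, Het, KO1, KO2 and KO3 controls and 6.36, 14.9, 7.41 and 9.40 CPM in the WT, Het, KO1 and KO2 doxorubicin libraries. Mx1 was at 0 in the WT and KO2 controls, and against the floor of 3 counts it was at least 98.1-fold higher in the Het control and at least 94.5-fold higher in the KO3 control than in WT. Samd9l was high in the Het and KO3 controls but near its control level with doxorubicin in WT, KO1 and KO2, at 0.02 ± 0.14 (SE, adjusted p = 0.880) in the fit without Het, and was not called. Without Het 6 of the 7 rose, against 39.3% of all genes. The Het response was lower than that of WT and of KO in 5 of the 7, against 2.33% and 4.45% of genes, Bst2 and Ifitm3 being the exceptions.

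With doxorubicin and TMM scaling, the levels of the PARP genes and Dtx3l lay close together in the 4 embryos. Parp9, whose protein pairs with DTX3L in a complex of ADP-ribosylation and ubiquitin transfer, was at 6.50, 79.7, 9.15, 7.16 and 86.9 CPM in the WT, Het, KO1, KO2 and KO3 controls and 28.0, 28.7, 28.4 and 33.6 CPM in the WT, Het, KO1 and KO2 doxorubicin libraries. Dtx3l, the ligase of that pair, was at 5.33, 41.8, 5.43, 5.62 and 44.7 CPM in the WT, Het, KO1, KO2 and KO3 controls and 30.0, 26.2, 29.5 and 30.6 CPM in the WT, Het, KO1 and KO2 doxorubicin libraries. Parp12, an ADP-ribosyltransferase that restricts several viruses, was at 16.7, 98.5, 15.9, 18.3 and 109 CPM in the WT, Het, KO1, KO2 and KO3 controls and 38.3, 46.1, 41.6 and 48.3 CPM in the WT, Het, KO1 and KO2 doxorubicin libraries. The WT, Het, KO1 and KO2 doxorubicin libraries lay close together in these 3 genes, between the low and the high controls. Parp14, another ADP-ribosyltransferase, was at 2.05, 60.0, 2.56, 2.04 and 55.7 CPM in the WT, Het, KO1, KO2 and KO3 controls and 30.6, 37.0, 36.7 and 30.1 CPM in the WT, Het, KO1 and KO2 doxorubicin libraries. Its doxorubicin levels again lay together, as scaled with TMM. The median log2 ratio of Het to WT was 3.27 in control and 0.15 with doxorubicin, the smallest of the role groups, and 4 of 4 lay within 2-fold in the latter, as did 77.3% of all genes. Scaled by total counts only, this median with doxorubicin was 0.57, with the 4 genes from 0.23 to 0.70, again the smallest of the role groups. Without Het 4 of 4 rose, Parp14 by 3.86 ± 0.14 (SE, adjusted p = 2.75e-15) and Parp9 by 1.98 ± 0.13 (SE, adjusted p = 3.20e-11), and 0 of 4 were called over the 4 embryos. Over all genes 39.3% rose without Het and 59.9% were called over the 4 embryos. In both tests of the Het response 4 of 4 were lower, against 2.33% and 4.45% of genes.

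The guanylate-binding proteins and the immunity-related GTPases act on the membranes of compartments that hold pathogens. Gbp2 was at 4.11, 53.8, 5.78, 3.30 and 68.4 CPM in the WT, Het, KO1, KO2 and KO3 controls and 21.4, 48.7, 17.6 and 16.9 CPM in the WT, Het, KO1 and KO2 doxorubicin libraries. Gbp3 was at 0.635, 99.6, 1.31, 0.606 and 112 CPM in the WT, Het, KO1, KO2 and KO3 controls and 21.7, 52.7, 23.8 and 24.6 CPM in the WT, Het, KO1 and KO2 doxorubicin libraries. Gbp7 was at 1.32, 57.2, 1.46, 0.551 and 65.8 CPM in the WT, Het, KO1, KO2 and KO3 controls and 16.1, 49.8, 15.5 and 19.0 CPM in the WT, Het, KO1 and KO2 doxorubicin libraries. With doxorubicin these 3 genes in WT, KO1 and KO2 were well above their controls, and in Het they were the highest of the 4 doxorubicin libraries. Igtp was at 0.880, 51.4, 1.46, 0.606 and 49.9 CPM in the WT, Het, KO1, KO2 and KO3 controls and 20.7, 98.1, 29.7 and 19.6 CPM in the WT, Het, KO1 and KO2 doxorubicin libraries. Irgm1, which regulates the other GTPases of its family, was at 95.7, 489, 96.5, 86.7 and 460.1 CPM in the WT, Het, KO1, KO2 and KO3 controls and 125, 185, 141 and 144 CPM in the WT, Het, KO1 and KO2 doxorubicin libraries. Igtp was higher with doxorubicin in each embryo, Het included, and Irgm1 was among the most abundant members in every library. Igtp rose by 3.40 ± 0.67 (SE, adjusted p = 0.00239), and its response was lower in Het, with a difference of −3.62 ± 0.37 (SE, adjusted p = 7.61e-06) from WT and −3.65 ± 0.30 (SE, adjusted p = 1.70e-07) from KO. Iigp1, an effector GTPase, was at 0.489, 41.6, 0.603, 0.220 and 55.1 CPM in the WT, Het, KO1, KO2 and KO3 controls and 1.29, 7.98, 1.78 and 2.20 CPM in the WT, Het, KO1 and KO2 doxorubicin libraries. Ifi47, of the same family, was at 4.11, 21.3, 6.23, 3.08 and 33.9 CPM in the WT, Het, KO1, KO2 and KO3 controls and 5.12, 6.96, 5.57 and 3.67 CPM in the WT, Het, KO1 and KO2 doxorubicin libraries. These 2 genes were high in the untreated Het and KO3 libraries, and with doxorubicin in WT, KO1 and KO2 Ifi47 was near its control and Iigp1 was higher than its control. Without Het 6 of the 7 rose, Iigp1 by 1.96 ± 0.37 (SE, adjusted p = 7.25e-05), and Ifi47, at 0.11 ± 0.18 (SE, adjusted p = 0.564), was not called. Over all genes 39.3% rose in that fit. The Het response was lower than that of WT and of KO in 7 of 7, against 2.33% and 4.45% of genes.

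The remaining members have varied roles. Ifi44 was at 1.47, 182, 3.37, 1.49 and 206 CPM in the WT, Het, KO1, KO2 and KO3 controls and 2.24, 53.3, 4.12 and 4.49 CPM in the WT, Het, KO1 and KO2 doxorubicin libraries. Rtp4, which escorts receptors to the cell surface, was at 0.587, 85.2, 0.955, 1.38 and 90.6 CPM in the WT, Het, KO1, KO2 and KO3 controls and 7.20, 20.2, 10.1 and 12.1 CPM in the WT, Het, KO1 and KO2 doxorubicin libraries. Xaf1, which favours cell death by binding the inhibitor XIAP, was at 0.733, 79.2, 2.81, 1.65 and 121 CPM in the WT, Het, KO1, KO2 and KO3 controls and 9.54, 38.7, 10.6 and 17.6 CPM in the WT, Het, KO1 and KO2 doxorubicin libraries. All 3 were at 3.37 CPM or less in the WT, KO1 and KO2 controls and at 79.2 CPM or more in those of Het and KO3. Trim30a was at 0.489, 70.3, 1.06, 0.496 and 86.1 CPM in the WT, Het, KO1, KO2 and KO3 controls and 4.72, 19.0, 3.40 and 3.94 CPM in the WT, Het, KO1 and KO2 doxorubicin libraries. Sp100, a protein of nuclear bodies that bind viral DNA, was at 0.293, 26.9, 1.06, 0.275 and 31.5 CPM in the WT, Het, KO1, KO2 and KO3 controls and 1.79, 13.0, 2.23 and 1.01 CPM in the WT, Het, KO1 and KO2 doxorubicin libraries. Ifi35 was at 14.0, 82.9, 12.0, 13.8 and 91.9 CPM in the WT, Het, KO1, KO2 and KO3 controls and 28.0, 67.6, 32.4 and 42.1 CPM in the WT, Het, KO1 and KO2 doxorubicin libraries. Each of these 3 genes was highest in the KO3 control and next in the Het control. Lgals3bp, a secreted glycoprotein, was at 56.1, 219.6, 65.9, 64.4 and 198 CPM in the WT, Het, KO1, KO2 and KO3 controls and 115, 321, 133 and 132 CPM in the WT, Het, KO1 and KO2 doxorubicin libraries. It was higher with doxorubicin in each embryo, and the Het doxorubicin library was the highest of the 9. Lgals3bp rose by 0.91 ± 0.12 (SE, adjusted p = 0.000260), and 0 of the other 6 were called over the 4 embryos. Without Het 7 of 7 rose, Xaf1 by 2.86 ± 0.24 (SE, adjusted p = 1.31e-09) and Sp100 by 1.66 ± 0.36 (SE, adjusted p = 0.000274). Over all genes 39.3% rose without Het and 59.9% were called over the 4 embryos. Here the Het response was lower than that of WT and of KO in 6 of the 7, against 2.33% and 4.45% of genes, Lgals3bp being the exception.

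Compared per kilobase of exon, the order of the members also differed between the classes. Ifitm3 stood first in the WT, KO1 and KO2 controls, at 331, 391 and 333 CPM per kb, with Irgm1 next at 41.5, 41.9 and 37.6 CPM per kb. In the Het control Ifitm3 was at 675 CPM per kb with Bst2 at 601 and Isg15 at 588, and in the KO3 control Bst2 was at 723, Ifitm3 at 719.6 and Isg15 at 653 CPM per kb. Isg15 thus moved from place 14 of 47 in the WT control to place 3 in those of Het and KO3, and to places 4, 3, 2 and 2 with doxorubicin in WT, Het, KO1 and KO2. The median member was at 0.532, 21.4, 0.897, 0.712 and 24.6 CPM per kb in the WT, Het, KO1, KO2 and KO3 controls and at 3.59, 8.87, 3.93 and 3.84 CPM per kb with doxorubicin. Ifitm3 alone held 37.1% of the members' counts in the WT control and 8.49% in the Het control, so that this gene weighs more in sums over the members in the low class. Over the 47 members, the correlation of log2 CPM was 0.988 between the Het and KO3 controls, 0.980 to 0.984 among the WT, KO1 and KO2 controls, and 0.577 to 0.642 between the pairs that cross; these are correlations across genes of single libraries.

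The rest of the pathway, taken from a list of other genes, showed which steps moved with the members. Ifnb1, the gene of interferon beta, had 0, 27, 0, 0 and 41 counts in the WT, Het, KO1, KO2 and KO3 controls and 1, 35, 3 and 0 counts in the WT, Het, KO1 and KO2 doxorubicin libraries. Only the Het and KO3 controls and the Het doxorubicin library had more than 3 counts. Of the 21 interferon ligands, none had more than 3 counts in the WT control, and Ifnb1 had the most counts in the Het and KO3 controls. Ifnz rose over the 4 embryos and without Het. It had at most 4 counts in a control and 47, 59, 32 and 51 counts in the WT, Het, KO1 and KO2 doxorubicin libraries. Ifnab had 0 counts in each control and 10, 48, 11 and 9 counts in the WT, Het, KO1 and KO2 doxorubicin libraries. Both thus had more counts than Ifnb1 in each doxorubicin library. The receptor chains were expressed throughout. Ifnar1 was at 107, 77.3, 109, 111 and 72.5 CPM in the WT, Het, KO1, KO2 and KO3 controls and 76.4, 55.1, 82.7 and 70.5 CPM in the WT, Het, KO1 and KO2 doxorubicin libraries. Ifnar2 was at 60.7, 47.4, 51.6, 56.5 and 52.3 CPM in the WT, Het, KO1, KO2 and KO3 controls and 73.2, 53.0, 57.4 and 61.6 CPM in the WT, Het, KO1 and KO2 doxorubicin libraries. Neither was high in Het and KO3, and of the 6 receptor genes 1 was 2-fold higher and 0 were lower in each of these controls against WT. Over the 4 embryos 0 of the 6 rose and 2 fell, against 30.9% and 29% of genes. Ifnar1 fell by 0.51 ± 0.10 (SE, adjusted p = 0.00186) and, without Het, by 0.52 ± 0.08 (SE, adjusted p = 5.79e-06). Without Het 1 of the 6 rose and 3 fell, against 39.3% and 36.4% of genes. Irf1 was at 18.0, 36.6, 16.4, 17.7 and 40.4 CPM in the WT, Het, KO1, KO2 and KO3 controls and 36.5, 32.8, 43.2 and 40.3 CPM in the WT, Het, KO1 and KO2 doxorubicin libraries. Irf3, the factor that starts interferon transcription, was at 33.0, 60.8, 30.6, 33.2 and 64.0 CPM in the WT, Het, KO1, KO2 and KO3 controls and 38.8, 61.4, 37.3 and 38.8 CPM in the WT, Het, KO1 and KO2 doxorubicin libraries. Irf1 and Irf3 were higher in the Het and KO3 controls by smaller factors than most members.

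Upstream of the interferons, some genes split as the members did and others did not: of 13 adaptors, sensors and kinases on a list, 4 were 2-fold higher and 1 was lower in the Het control, and 4 and 1 in the KO3 control. Over all 14883 genes 20.4% and 19% were 2-fold higher, and 1625 and 1868 genes were 2-fold lower, so these counts are near the background. Mb21d1, the gene of cGAS, was at 4.74, 5.50, 6.08, 5.23 and 10.3 CPM in the WT, Het, KO1, KO2 and KO3 controls and 9.14, 11.1, 8.86 and 8.02 CPM in the WT, Het, KO1 and KO2 doxorubicin libraries. Tmem173, the gene of STING, was at 62.6, 23.7, 85.7, 68.7 and 26.5 CPM in the WT, Het, KO1, KO2 and KO3 controls and 14.9, 8.18, 21.2 and 11.6 CPM in the WT, Het, KO1 and KO2 doxorubicin libraries. Mavs, the adaptor of the RNA sensors, was at 40.4, 27.2, 37.1, 39.0 and 26.3 CPM in the WT, Het, KO1, KO2 and KO3 controls and 43.7, 27.3, 56.0 and 52.5 CPM in the WT, Het, KO1 and KO2 doxorubicin libraries. Tmem173 was lower in the Het and KO3 controls than in the others and lower with doxorubicin in each embryo. Of the same list, 2 more genes are named after their values were seen. Ikbke, the gene of a kinase that acts on interferon regulatory factors, was at 13.5, 62.2, 10.8, 12.5 and 68.5 CPM in the WT, Het, KO1, KO2 and KO3 controls and 26.4, 85.0, 27.1 and 35.8 CPM in the WT, Het, KO1 and KO2 doxorubicin libraries. Aim2, the gene of another DNA sensor, was at 0.929, 10.6, 0.503, 0.991 and 8.06 CPM in the WT, Het, KO1, KO2 and KO3 controls and 1.99, 39.0, 2.17 and 2.93 CPM in the WT, Het, KO1 and KO2 doxorubicin libraries. Both were high in the Het and KO3 controls and highest of all in Het with doxorubicin. Mb21d1 rose by 0.78 ± 0.17 (SE, adjusted p = 0.00351) and Tmem173 fell by 2.05 ± 0.17 (SE, adjusted p = 3.52e-05) over the 4 embryos. Without Het, Mb21d1 rose by 0.69 ± 0.15 (SE, adjusted p = 0.000315) and Tmem173 fell by 2.22 ± 0.11 (SE, adjusted p = 2.94e-13). Of these 13 adaptors and kinases 4 rose and 4 fell over the 4 embryos, near the 30.9% and 29% of all genes, and without Het 5 of 12 rose and 5 fell, against 39.3% and 36.4%. Of 8 genes that clear nucleic acids, 3 rose and 0 fell, and without Het 5 rose and 1 fell. Further interferon-stimulated genes outside the 47 followed the members in the untreated cultures. Of 37 that passed the filter, 30 were 2-fold higher in the Het control and 31 in the KO3 control, with 0 lower. Over all genes 20.4% and 19% were higher. In the fit over the 4 embryos 10 of 35 tested rose and 0 fell, against 30.9% and 29% of genes. Within Het, doxorubicin moved them both ways: Nlrc5 went from 9.64 to 64.3 CPM and Oas1b from 31.9 to 11.5 CPM. Of 35 tested 21 had a lower response in Het than in WT, against 2.33% of genes, and 0 a higher one. The chemokine gene Cxcl10 was at 1.32, 91.0, 2.66, 0.826 and 79.1 CPM in the WT, Het, KO1, KO2 and KO3 controls and 5.81, 22.4, 7.41 and 4.95 CPM in the WT, Het, KO1 and KO2 doxorubicin libraries. Ccl5, another chemokine gene, was at 0.782, 23.0, 0.653, 1.65 and 20.7 CPM in the WT, Het, KO1, KO2 and KO3 controls and 1.24, 34.7, 1.11 and 1.24 CPM in the WT, Het, KO1 and KO2 doxorubicin libraries. Cxcl10 split as the members did, and Ccl5 was high in all 3 libraries of Het and KO3, doxorubicin included. Cdkn1a, a gene of the DNA damage response, was at 545, 538, 439, 484 and 393 CPM in the WT, Het, KO1, KO2 and KO3 controls and 270.4, 319, 312 and 336 CPM in the WT, Het, KO1 and KO2 doxorubicin libraries. It was lower with doxorubicin in each embryo and fell by 0.70 ± 0.11 (SE, adjusted p = 0.000846), and by 0.68 ± 0.09 (SE, adjusted p = 6.22e-07) without Het. Of the 6 genes of the damage response on its list, 2 are named after their values were seen. Mdm2 was at 247, 518, 199, 214 and 510.1 CPM in the WT, Het, KO1, KO2 and KO3 controls and 225, 499, 205 and 283 CPM in the WT, Het, KO1 and KO2 doxorubicin libraries. Bax was at 156, 261, 129.9, 157 and 278 CPM in the WT, Het, KO1, KO2 and KO3 controls and 152, 202, 172 and 165 CPM in the WT, Het, KO1 and KO2 doxorubicin libraries. Both were higher in the Het and KO3 controls than in the other 3 controls, as was Ccng1, while with TMM Phlda3 was lower in them and Sesn2 and Cdkn1a were neither. With total counts only, all 6 were higher in the Het and KO3 controls.

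Markers of other cell types were read beside the members. The 15 macrophage genes in the table (Adgre1 is not in it) summed to 263, 768, 187, 146 and 531 CPM in the WT, Het, KO1, KO2 and KO3 controls and to 171, 830, 152 and 111 CPM in the WT, Het, KO1 and KO2 doxorubicin libraries, with Lyz2 the most abundant gene and 0 of the 15 at or under the floor in any library. They were thus highest in the 3 libraries of the Het embryo and the KO3 embryo: 9 of 15 were 2-fold higher and 1 lower in the Het control, and 7 higher and 2 lower in the KO3 control (20.4% and 19% of all genes were higher, and 1625 and 1868 of 14883 lower), from Mrc1 (log2 ratios of −4.54 and −4.61) to Aif1 (5.23 and 4.45). They were also present in WT, KO1 and KO2, where the members were low. With doxorubicin the macrophage sum of Het was higher than in its control and the summed level of the members was lower. Of the 4 genes for plasmacytoid dendritic cells, Tcf4, which fibroblasts express, was at 122, 88.0, 102, 131 and 62.7 CPM in the WT, Het, KO1, KO2 and KO3 controls and 41.6, 38.3, 35.4 and 39.5 CPM in the WT, Het, KO1 and KO2 doxorubicin libraries. Siglech and Ccr9 were at 0 in all controls, and Flt3 had 6 counts in the Het control and 0 in the other 4. Of lymphocyte markers, Cd79a had 1, 7, 0, 3 and 12 counts in the WT, Het, KO1, KO2 and KO3 controls and 42, 160, 31 and 39 counts in the WT, Het, KO1 and KO2 doxorubicin libraries, again highest in Het and KO3. No sum over that list is given. The 7 endothelial genes summed to 45.9, 17.8, 18.2, 19.3 and 18.1 CPM in the controls and to 92.2, 41.3, 40.8 and 37.1 CPM with doxorubicin, with Emcn the most abundant and Cldn5 at 0 in all controls but KO1. Against this sum, Pecam1 of the same list had 1, 51, 1, 2 and 36 counts in the WT, Het, KO1, KO2 and KO3 controls and 119, 270, 80 and 73 counts in the WT, Het, KO1 and KO2 doxorubicin libraries, and was highest in the Het and KO3 controls among the controls and in Het among the doxorubicin libraries. The 5 epithelial genes summed to 18.5, 7.03, 9.35, 12.2 and 7.25 CPM in the controls and to 9.14, 6.91, 8.19 and 7.20 CPM with doxorubicin, in the same order of embryos, with Krt18 the most abundant in the controls. The part of these markers in the members' levels was not tested.

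The members also share features of position and sequence that their choice did not use. In the annotation of GRCm38 they lie on 17 chromosomes, and 22 of them lie within 500000 bases of another member, in 9 groups, among them Ifit1, Ifit2 and Ifit3 on chromosome 19, Oas1a, Oas2 and Oas3 on chromosome 5, Gbp2, Gbp3 and Gbp7 on chromosome 3, and Ifitm3 and Irf7 on chromosome 7. Members of such families have similar sequences, and 6 members share exon bases with another gene, Parp9 the most at 10.3% of its exon bases. Promoters from 250 bases before to 50 bases after the start, from RefSeq on GRCm38.p6, were matched for 36 of the 47 members; Oas2, Mx1, Mx2, Dhx58, Parp9, Parp14, Usp18, Rtp4, Zbp1, Iigp1 and Ifi204 had no entry. The interferon-stimulated response element was searched on both strands as GAAA, then any 2 bases, then GAAA. It was found in 18 of the 36 members (50%), against 3.44% of 32851 promoters in the table and 3.99% of its 27025 genes. The gamma-activated sequence, searched as TTCNNNGAA, a motif whose reverse complement is the same, was found in 8 of the 36 (22.2%), against 8.30% of promoters and 9.55% of genes. These matches are descriptions of letters in the window. The 18 members with the response element had a median log2 ratio to WT of 5.54 in the Het control and the 18 without it 3.25, and within the WT embryo the medians with doxorubicin were 2.35 and 1.02. In the same order they were 1.60 and 1.09 within KO1, 2.30 and 1.46 within KO2 and −1.24 and −1.32 within Het. The 11 members with no entry had medians of 6.15 in the Het control and, with doxorubicin, of 3.19 within WT, 3.23 within KO1, 3.50 within KO2 and −0.74 within Het. The 2 groups with an entry both contained genes of the high and the low end, and their ranges overlapped.

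The promoters of 4 members are printed because they span the range of responses: Isg15 with the most matches and the largest ratio among members above 3 counts in WT, Ifit1 with the lowest log2 ratio of doxorubicin to control in Het (-2.79), Ifitm3 as first per kilobase in all libraries but the KO3 control, and Eif2ak2 as a member that was lower with doxorubicin in each embryo. They are read in the direction of the gene, in lower case with the letters of matches to the response element in capitals, from chr4:156200769-156201068 on the minus strand, chr19:34640639-34640938 on the plus strand, chr7:141010695-141010994 on the minus strand and chr17:78882523-78882822 on the minus strand.
Isg15: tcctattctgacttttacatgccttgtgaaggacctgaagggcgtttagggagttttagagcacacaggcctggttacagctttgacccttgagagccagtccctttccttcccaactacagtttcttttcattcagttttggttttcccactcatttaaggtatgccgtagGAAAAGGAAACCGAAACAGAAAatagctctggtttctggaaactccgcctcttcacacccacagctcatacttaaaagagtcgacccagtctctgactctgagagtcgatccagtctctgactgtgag
Ifit1: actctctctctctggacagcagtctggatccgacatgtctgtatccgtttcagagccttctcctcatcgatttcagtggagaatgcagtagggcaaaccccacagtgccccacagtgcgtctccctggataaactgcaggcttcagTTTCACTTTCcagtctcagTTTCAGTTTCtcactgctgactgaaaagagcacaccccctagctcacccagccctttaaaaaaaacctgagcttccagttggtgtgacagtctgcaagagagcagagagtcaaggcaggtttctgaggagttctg
Ifitm3: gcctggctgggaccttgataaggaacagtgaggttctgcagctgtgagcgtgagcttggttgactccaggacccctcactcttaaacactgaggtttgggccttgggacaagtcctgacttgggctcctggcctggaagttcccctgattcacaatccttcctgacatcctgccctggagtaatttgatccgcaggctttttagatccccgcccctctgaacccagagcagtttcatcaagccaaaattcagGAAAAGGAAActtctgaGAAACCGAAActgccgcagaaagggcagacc
Eif2ak2: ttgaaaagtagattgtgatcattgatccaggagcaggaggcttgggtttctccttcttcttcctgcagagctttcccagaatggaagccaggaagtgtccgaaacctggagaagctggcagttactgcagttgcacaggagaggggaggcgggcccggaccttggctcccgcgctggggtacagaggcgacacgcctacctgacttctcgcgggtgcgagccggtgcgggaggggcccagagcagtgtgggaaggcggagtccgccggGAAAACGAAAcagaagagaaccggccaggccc
In Isg15 the response element occurred 3 times in overlapping positions, the matches starting 78, 72 and 66 bases before the start of the gene. Ifit1 had matches 104 and 85 bases before the start, while those of Ifitm3 and Eif2ak2 lay after it.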

How the data were processed

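Counts of RNA-seq reads per gene, a unit the deposited count table holds as whole read counts, were made by the authors, who merged the 4 runs of each library, aligned them to mm10 with HISAT2 (2.1.0 per the labels) and assigned reads to genes with HTSeq (union); the strand setting is not stated. From the raw counts, 9 libraries were used, with total counts from 15560728 to 24122414; the column of KO3 with doxorubicin was left out as identical to that of KO2. Genes were filtered with filterByExpr and scaled with TMM, and groups were compared with edgeR 4.0.16 (glmQLFit, glmQLFTest) in R 4.3.3, with Benjamini-Hochberg adjusted p under 0.01 over all genes tested and SE taken as the log2 fold change divided by the square root of F. Ratios of single libraries used a prior count of 2, and members at or over 2-fold were counted without a test. Alternatives were DESeq2 1.42.0, its size factors, thresholds of 0.05 and 0.001, no filter, a prior count of 0.5, no Rn45s, no embryo block, RUVg with 1 factor and leaving out each embryo; total counts only in the fits and KO minus WT without Het were chosen after seeing the data. The members and lists were chosen with earlier results of these data known, the high levels in Het and KO3 among them, so that direction is no independent support. By rule, values in sentences were to be given for 30 listed members, for the 3 largest and 3 smallest fold changes within embryos, for each member past a threshold in the tests by genotype, and for named genes of the pathway; values of the other members were added after the data were seen. The fits were also run on simulated counts in which all libraries shared a mean profile, apart from genes set to change, and a single dispersion. That setting left out the table-wide difference of the Het and KO3 libraries, so it cannot show how the fits behave under it. Positions and exon lengths came from GENCODE M21 (GRCm38), promoters from RefSeq (GRCm38.p6).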

Additional observations from a re-analysis of the deposited data

Results flagged for a closer look

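The difference of the doxorubicin response between genotypes passed its test for 40 members in Het minus WT and for 41 in Het minus KO. Each of these responses was lower in Het, against 2.33% and 4.45% of all genes. Without the embryo block 13 and 26 members passed, against 21 and 96 of 14735 genes. The difference contains the high untreated Het level, which was known when the members were chosen, so its direction is no independent support. Of the members with the largest change within embryos, Usp18 differed by −7.42 (Het minus WT) and −6.74 (Het minus KO) on the log2 scale. Irf7 differed by −5.59 and −5.32, and Igtp by −3.62 and −3.65, in the same order. Het and WT had 1 embryo each, and the cause was not tested.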

How the results depend on the processing

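Of the alternatives to the reported counts and medians, 130 gave the same direction and side of the threshold or a count within 1.5 times, 21 gave more calls, 17 gave fewer, 13 gave a median further away than the spread between replicates and 1 gave the opposite sign; no member past a threshold changed direction in the settings with a test. The lone WT and Het libraries were assumed to vary like the others. The cause of the changes below was not tested, except that a stricter or looser threshold changes counts by its construction.

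For doxorubicin within embryos, 20 members passed at 0.05, 3 at 0.001 and 24 with DESeq2, against 10611, 5897 and 9529 of 14735 genes. With the identical library taken as KO embryo 3, 3 members passed, all lower, against 5986 of 14825 genes, and the median was 0.062. Leaving out an embryo gave 6619 to 11065 genes, 5 to 44 members and medians of 0.79 to 2.09.

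For KO against WT in control, leaving out a KO embryo gave 0 to 47 genes, 0 to 24 members and medians of 0.17 to 4.71; RUVg gave 161 genes, 9 members and a median of 1.33. With doxorubicin, 46 genes passed at 0.05, 5 with DESeq2 and 5 with its size factors in edgeR, and leaving out a KO embryo gave medians of 0.16 to 0.20, with no residual degrees of freedom and so no test.

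For the response, Het minus WT, 1964 genes passed at 0.05, 217 at 0.001, 286 with DESeq2 (26 members, median −3.54), 1515 with its size factors (median −3.54), 1376 with no filter, 21 without the embryo block (13 members) and 1203 with total counts (median −3.70); leaving out a KO embryo, without a test, gave medians of −3.59 to −3.53. For Het minus KO, 3053 genes passed at 0.05, 519 at 0.001, 579 with DESeq2, 2223 with its size factors, 96 without the block (26 members) and 2177 with total counts. For KO minus WT, 0 genes passed at 0.001, 7 with DESeq2's size factors, 8 with no filter, 0 without the block, 6 with total counts and 7 without Het; the median was −0.25 to 0.09 when a KO embryo was left out, changing sign without KO1 (0.0858).

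Ratios of single libraries with doxorubicin moved with total counts, to 1.86 (Het), 0.14 (KO1) and 0.29 (KO2) over WT. With a prior count of 0.5, 12 members were 2-fold higher in the KO1 control than in WT, against 7. Depth limits the members at 3 counts or fewer in the low controls.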

Other observations

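WT and Het had 1 library per treatment, so no spread within these genotypes was measured. The KO3 embryo had no doxorubicin library of its own: the column under its name repeats that of KO2, and Xist and the Y-linked genes matched the KO2 control and not the KO3 control. The log2 difference between KO1 and KO2 over 14883 genes correlated at 0.385 between control and doxorubicin libraries, a value across genes. Reads that match more than 1 gene of the Ifit, Oas, Gbp or Mx families were not measured. Protein and interferon secretion were not measured.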
